A study of Lolium perenne with 10 samples.

Results

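The genes described here are 150 assembled transcript clusters of perennial ryegrass (Lolium perenne) leaves that were lower under submergence and in the title-cold temperature group, and close to control under drought and in the title-heat group. They are 150 of 46394 clusters in the count table. The rule first kept the 21817 clusters with at least 10 counts in both libraries of control, drought, title-cold or title-heat. Levels were expressed as log2(CPM + 1), where CPM is the count of a cluster relative to the TMM-adjusted size of its library, and each group mean was compared with the control mean. A cluster qualified when this difference was −1 or lower under submergence and in title-cold and within 1 of control in both other treatments. In all, 722 clusters (3.31% of those kept) met these limits, and the 150 whose smaller fall was largest were taken. The genes were thus chosen by their levels in these same libraries, and their falls against control are given without a test.

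RNA-seq was made from wild-type (WT) leaves in 5 groups of 2 libraries, with 30 seedlings per library according to the series' design text. The groups were submergence, title-cold, title-heat, drought (water withheld for 7 days, starting at 7 days of age) and untreated control. The temperature groups were treated for 12 h at an age of 14 days, one at 4 °C and one at 42 °C. Their labels contradict each other: the title-cold libraries carry heat in their treatment field and the title-heat libraries carry cold, so neither is given a temperature here. Growth chambers ran at 22 °C in the light period of 16 h and 18 °C in the dark. The sources used here do not state how long submergence lasted or how old submerged and control seedlings were, so age and treatment cannot be told apart in those comparisons. The treatment protocol in the labels speaks of Arabidopsis with a recovery period and the extraction protocol of bermudagrass, so these details may belong to other experiments. Nothing states that replicates were separate cultures, so the spread behind each p-value may be technical.

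As background, submergence slows gas exchange and dims light at the leaf, and plants short of oxygen turn to fermentation and restrict costly syntheses. Low temperature slows enzymes and stiffens membranes, high temperature unfolds proteins, and drought closes stomata and triggers abscisic acid signalling. Leaf transcriptomes are usually dominated by a small number of strongly expressed genes, many of them for photosynthesis. None of the 150 identifiers was found in the RefSeq table of the Kyuss_2.0 assembly (0 of 46394 in the whole table), so no role can be given to any of them and no pathway or cell type list could be matched. Genes are called below by their rank in the rule. The leaf identity of the samples could not be checked against markers for the same reason.

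Total counts ran from 10847727 to 12605087 per library. The kept clusters held 94.9% and 95.3% of the counts under submergence and at least 99.5% in every other library. Of the 150 identifiers, 2 share a cluster number, and they may be copies or alleles of one sequence. In bulk tissue, fewer cells of a type and less RNA per cell cannot be told apart.

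The 150 genes made up a large part of the leaf transcriptome in the groups where they were not lowered. They held 2.98% and 3.49% of all counts in the submergence libraries and 2.69% and 2.61% in title-cold. They held 11.1% and 10.8% under drought, 8.83% and 8.96% in title-heat, and 11.5% and 11.3% in control. The share of counts needs no scaling factor, though it also depends on what the rest of the library holds. The low groups lay far from the others with no overlap between them. The rule chose the genes by their levels in these libraries, so this gap follows from the choice and nothing is read from it. Relative to control, the mean share was 0.284 under submergence, 0.233 in title-cold, 0.962 under drought and 0.782 in title-heat. By share, drought libraries thus lay slightly below control, and title-heat libraries lay below both drought and control. Summed in TMM-scaled CPM, drought (130250 and 124453) overlapped control (139661 and 124275), and title-heat (110538 and 119144) lay below both. The control level also chose the genes, which favours other groups lying below it.

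**Figure D1:**
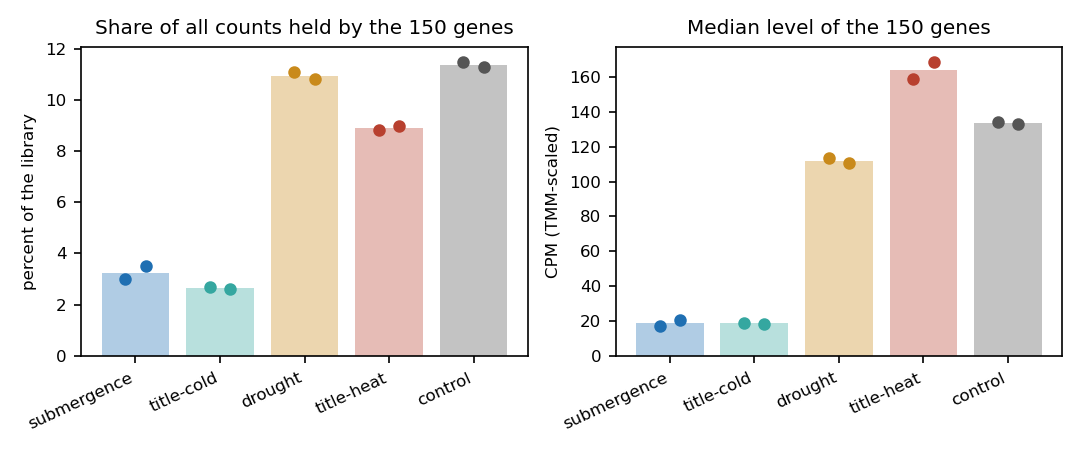
Left, percent of each library's counts held by the 150 genes. Right, median over the 150 genes of the level in CPM; points are libraries and bars are group means (n = 2). The 4 submergence and title-cold libraries hold at most 3.49% of counts and the other 6 at least 8.83%.

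The most-read genes carried most of this share. The 10 members with the most reads in control, a choice that itself favours control, held 2.22 ± 0.31% of counts under submergence, 1.79 ± 0.02% in title-cold, 7.51 ± 0.19% under drought, 5.57 ± 0.09% in title-heat and 7.38 ± 0.10% in control (SD, n = 2 each). The other 140 members held 1.02 ± 0.04%, 0.865 ± 0.073%, 3.43 ± 0.02%, 3.33 ± 0.004% and 4.00 ± 0.06% in the same groups. Both sets were lower under submergence and in title-cold, as the rule requires, and in title-heat both lay below control. All 722 qualifying clusters together held 15.1 ± 1.2% of counts under submergence, 17.6 ± 1.8% in title-cold, 39.0 ± 2.0% under drought, 33.8 ± 0.2% in title-heat and 42.2 ± 0.7% in control.

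Per gene, the median difference from control in log2(CPM + 1) was −2.40 under submergence and −2.50 in title-cold. The interquartile ranges were −2.80 to −2.11 and −2.98 to −2.12. The lowest single values were −8.12 and −8.06. Over all kept clusters these differences had medians of 0.03 and 0.08. The edge of the list was shallow. The smaller of each gene's falls was 1.83 and 1.82 in the last 2 genes inside it and 1.81 in each of the next 2 outside.

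Under edgeR's quasi-likelihood test, which the choice of genes makes uninformative here, 148 of the 150 were called lower under submergence, where 19.6% of kept clusters were called lower. The count was also 148 in title-cold, where 16.5% of kept clusters were called lower. In all genes but 1, the 4 submergence and title-cold libraries lay below both control libraries, where 34.1% and 31.2% of kept clusters lay wholly below control in those groups, and nothing is read from this. The exception was rank 31, which had 0 counts in all 4 of these libraries, 53 and 35 under drought, 0 and 118 in title-heat, and 305 and 0 in control. Its place in the list rests on control replicate 1 alone.

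Drought and title-heat were held within 1 of control by the rule, which does not set the sign of the difference. The control mean subtracted here also chose the genes, so noise that raises it favours values below control. Under drought the median was −0.28, with 109 genes below control and 41 above. Over all kept clusters it was −0.04, with 11273 below and 10468 above. In title-heat the median was −0.09, with 83 genes below and 67 above, against 0.00 over all kept clusters, with 10907 below and 10843 above. The title-heat value was within the difference between its libraries, at −0.16 and 0.01. The median level over the 150 genes was nevertheless 164 ± 7 CPM in title-heat and 134 ± 1 CPM in control, and the median of levels and the median of per-gene differences are separate quantities. By edgeR's test, 33 genes were called lower and 7 higher under drought, where 15.9% and 19.9% of kept clusters were called lower and higher. In title-heat 17 were called lower and 19 higher, where 11.7% and 16.2% of kept clusters were. These counts are limited by the rule and nothing is read from them.

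**Figure D2:**
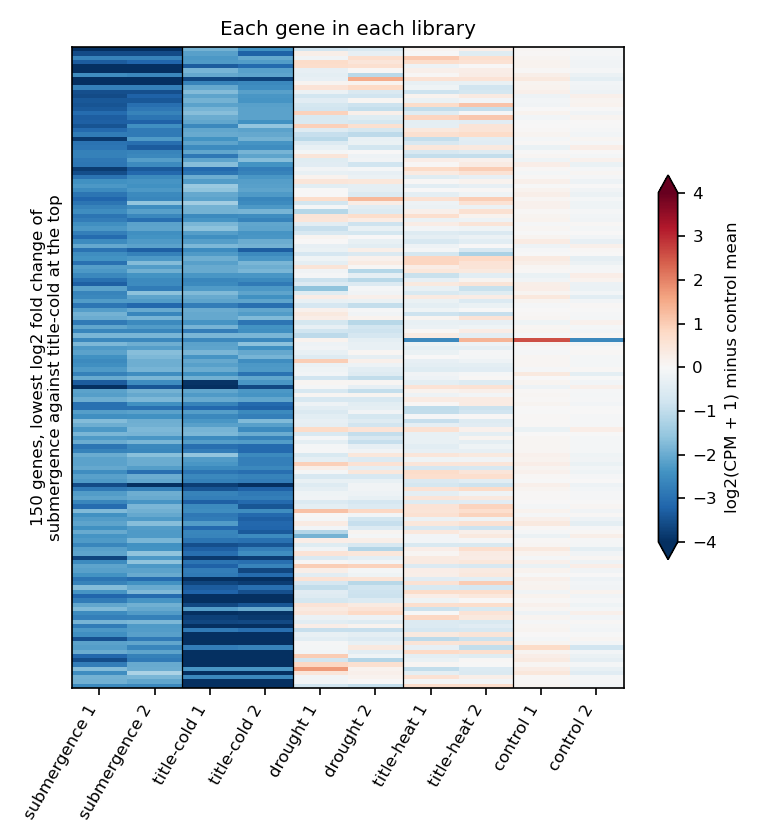
Difference of log2(CPM + 1) from the control mean for each of the 150 genes (rows) in each of the 10 libraries (columns), with colour limits at −4 and 4. Rows run from the lowest fold change of submergence against title-cold at the top to the highest at the bottom; submergence and title-cold columns are blue throughout, most deeply in submergence at the top and in title-cold at the bottom.

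Clusters with many reads in control qualified more often than those with few. Read counts rise with transcript length as well as with level, and lengths are not used here. The median control value of the 150 genes was 135 CPM, of the other 572 qualifying clusters 94.6 CPM, and of all kept clusters 6.03 CPM. Part of this is built into the rule, because a gene needs at least 2.53 CPM in control to show the fall of the last rank. Among the 14764 kept clusters at or above that value the median was 12.8 CPM, with 8.95% over 100 CPM, compared with 59.3% of the 150 genes. Of the 115 kept clusters with 1000 CPM or more in control, 66 (57.4%) met the limits of the rule, and 22 of these are in the list. From 100 to 1000 CPM, 304 of 1207 (25.2%) met them. From 10 to 100 CPM, 239 of 7185 (3.33%) did, and below 10 CPM 113 of 13310 (0.849%). The control mean that forms these classes is also the one the rule subtracts, so noise that raises it favours qualifying. Low counts scatter more, which makes the limits for drought and title-heat harder to meet. How much of the trend comes from this was not tested. Without the limits for drought and title-heat, 63.5%, 36.7%, 8.24% and 2.98% of clusters were down in both submergence and title-cold, from the highest class to the lowest.

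**Figure D3:**
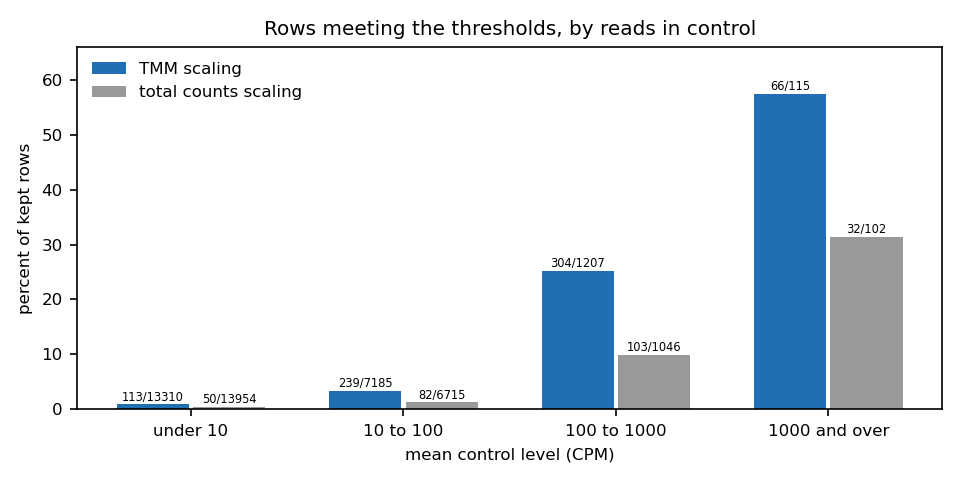
Percent of kept clusters that meet the limits of the rule, by mean control level in CPM, with the number of clusters above each bar, for TMM scaling (blue) and total counts (grey). The percent is highest in the class of 1000 CPM and over, 57.4% with TMM scaling and 31.4% with total counts.

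Scaling sets how deep these falls look. With library totals alone instead of TMM factors, every difference from control moved by 0.65 for submergence, 0.56 for title-cold and −0.16 for title-heat on the log2 scale before the pseudocount. The median of the 150 genes was then −1.86 for submergence and −1.99 for title-cold, beside 0.49 and 0.52 over all kept clusters. Only 267 clusters met the limits, yet 136 of the 150 genes were among the first 150. The order of the control classes was the same, with 31.4% of clusters at 1000 CPM or more, 9.85% from 100 to 1000, 1.22% from 10 to 100 and 0.358% below 10 CPM.

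The first 6 ranks show the range of patterns. Rank 1, c154742.graph_c0, had 0.827 and 0.255 CPM under submergence, 0.587 and 0.134 CPM in title-cold, 14.1 and 18.6 CPM under drought, 12.4 and 11.1 CPM in title-heat, and 24.1 and 17.6 CPM in control. Its submergence and title-cold values rest on 2 to 12 counts per library. They overlap each other and lie far below the other groups.

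Rank 2 had 7.23 and 11.8 CPM under submergence, 7.12 and 10.1 CPM in title-cold, 130 and 108 CPM under drought, 199 and 201 CPM in title-heat, and 117 and 154 CPM in control. The low groups overlapped here as well, and title-heat lay above control. Rank 3 had 8.89 and 23.2 CPM under submergence, 139 and 132 CPM in title-cold, 1401 and 4949 CPM under drought, 2594 and 2586 CPM in title-heat, and 2309 and 1328 CPM in control. Submergence lay well below title-cold in this gene, and the drought libraries were farther apart than any other pair of replicates.

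Rank 4 had 0.344 and 2.17 CPM under submergence, 17.2 and 20.5 CPM in title-cold, 301 and 288 CPM under drought, 159 and 185 CPM in title-heat, and 203 and 164 CPM in control. As in rank 3, submergence was lowest and title-cold next. Rank 5 had 118 and 194 CPM under submergence, 11.7 and 7.38 CPM in title-cold, 807 and 614 CPM under drought, 1140 and 1435 CPM in title-heat, and 1767 and 1076 CPM in control. Rank 6 had 157 and 248 CPM under submergence, 39.7 and 34.9 CPM in title-cold, 1297 and 1206 CPM under drought, 845 and 960 CPM in title-heat, and 1665 and 1852 CPM in control. In ranks 5 and 6 the order was turned, with title-cold lowest.

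The 4 genes with the most reads in control illustrate the main pattern at high counts. The first, rank 107, is c160866.graph_c2. It had 3224 and 4277 CPM under submergence, 2012 and 1945 CPM in title-cold, 18407 and 18173 CPM under drought, 14102 and 14925 CPM in title-heat, and 16006 and 14714 CPM in control. Rank 111 had 2868 and 3284 CPM under submergence, 3373 and 3189 CPM in title-cold, 15154 and 13043 CPM under drought, 11912 and 13330 CPM in title-heat, and 13509 and 13179 CPM in control. In rank 107 drought lay above control and title-heat overlapped it, and in rank 111 both overlapped control. The submergence and title-cold libraries lay far below, apart from each other in rank 107 and overlapping in rank 111.

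Rank 70 had 2070 and 2880 CPM under submergence, 2471 and 2307 CPM in title-cold, 9536 and 9677 CPM under drought, 8498 and 8607 CPM in title-heat, and 11806 and 10694 CPM in control. Rank 34 had 1414 and 2070 CPM under submergence, 435 and 398 CPM in title-cold, 11752 and 10802 CPM under drought, 6718 and 7139 CPM in title-heat, and 10306 and 9439 CPM in control. In rank 70 the submergence and title-cold libraries overlapped, and drought and title-heat lay below control. In rank 34 title-cold was again lower than submergence, and title-heat lay below drought and control.

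The rule asks for a fall in both submergence and title-cold and does not say which is deeper, so these groups were compared directly. The libraries are those that chose the genes, but this contrast is not. By edgeR's quasi-likelihood test over all 21817 kept clusters, 67 of the 150 genes (44.7%) differed at an adjusted p below 0.05, where 39.4% of all kept clusters did. Of these, 41 (27.3% of the 150) were higher under submergence than in title-cold and 26 (17.3%) lower. Of kept clusters, 20% and 19.4% were called higher and lower. The median log2 fold change was 0.06, with an interquartile range of −0.47 to 0.81, and it was −0.07 over all kept clusters. It was the same with the 4 genes at 0 counts in 1 of the groups set at their bound. Those genes stay on their side of the median there, so this could not have changed it. The share called in either direction is near that of the kept clusters, which leave out clusters read only under submergence. The 150 genes also had more reads in control than most kept clusters (medians 135 and 6.03 CPM). The shares are therefore not of like clusters, and whether the 150 genes differed as often as others was not tested. Among the 572 qualifying clusters ranked below them, 79 were called higher and 194 lower.

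The 41 genes that fell further in title-cold had median differences from control of −2.20 under submergence and −3.35 in title-cold, and 15 of them differed over 4-fold between the groups. The 26 that fell further under submergence had medians of −3.24 and −2.16, and 9 of them differed over 4-fold. The first set held 4.53% of control counts and the second 0.538%. The other 83 genes, which did not pass the test, had medians of −2.34 and −2.26 and held 6.31% of control counts.

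The largest differences in this contrast were wide. Rank 32 had 25.3 and 24.5 CPM under submergence and 0.073 and 0.067 CPM in title-cold, with 1 count in each title-cold library. It had 88.0 and 78.9 CPM under drought, 251 and 248 CPM in title-heat, and 164 and 142 CPM in control. From the summed counts the ratio of submergence to title-cold was 356, with a 95% exact counting interval of 98.1 to 2942 (adjusted p = 2.12e-07, edgeR). In title-cold this gene was almost unread, while under submergence it was still well measured.

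Rank 116 had 482 and 432 CPM under submergence, 7.26 and 4.63 CPM in title-cold, 1696 and 1844 CPM under drought, 1732 and 1665 CPM in title-heat, and 1889 and 1741 CPM in control. Its log2 fold change of submergence against title-cold was 6.27 ± 0.24 (SE, adjusted p = 3.82e-07, edgeR). Drought overlapped both title-heat and control in this gene. Rank 143 had 9 and 11 counts under submergence, 0 in both title-cold libraries, 44 and 55 under drought, 73 and 50 in title-heat, and 46 and 49 in control. Its submergence mean was 3.13-fold the title-cold level at 3 counts per library, taken as the limit that 0 allows (adjusted p = 0.000756, edgeR). This ratio takes the submergence counts as exact, so it is not a lower bound.

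In the other direction, rank 78 had 0.344 and 0.382 CPM under submergence, 101 and 70.3 CPM in title-cold, 221 and 249 CPM under drought, 406 and 453 CPM in title-heat, and 404 and 356 CPM in control. Its log2 fold change was −7.84 ± 0.30 (SE, adjusted p = 3.82e-07, edgeR). The submergence value rests on 5 and 6 counts, so this gene was almost unread there while title-cold kept a clear signal. Rank 22 had 0 counts in both submergence libraries, 23 and 4 in title-cold, 126 and 85 under drought, 99 and 62 in title-heat, and 102 and 108 in control. Its title-cold mean was 4.92-fold the submergence level taken as the limit that 0 counts allow (adjusted p = 0.00781, edgeR). This ratio takes the uneven title-cold counts as exact, so it is not a lower bound. The groups other than submergence and title-cold overlapped in rank 22. Rank 72 had 0 counts in both submergence libraries, 4 and 8 in title-cold, 46 and 92 under drought, 111 and 76 in title-heat, and 53 and 50 in control. By the same measure its title-cold mean was 2.09-fold the submergence level (adjusted p = 0.0054, edgeR). This last call did not hold when the 4 libraries compared were fitted alone (adjusted p = 0.0677, edgeR).

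**Figure D4:**
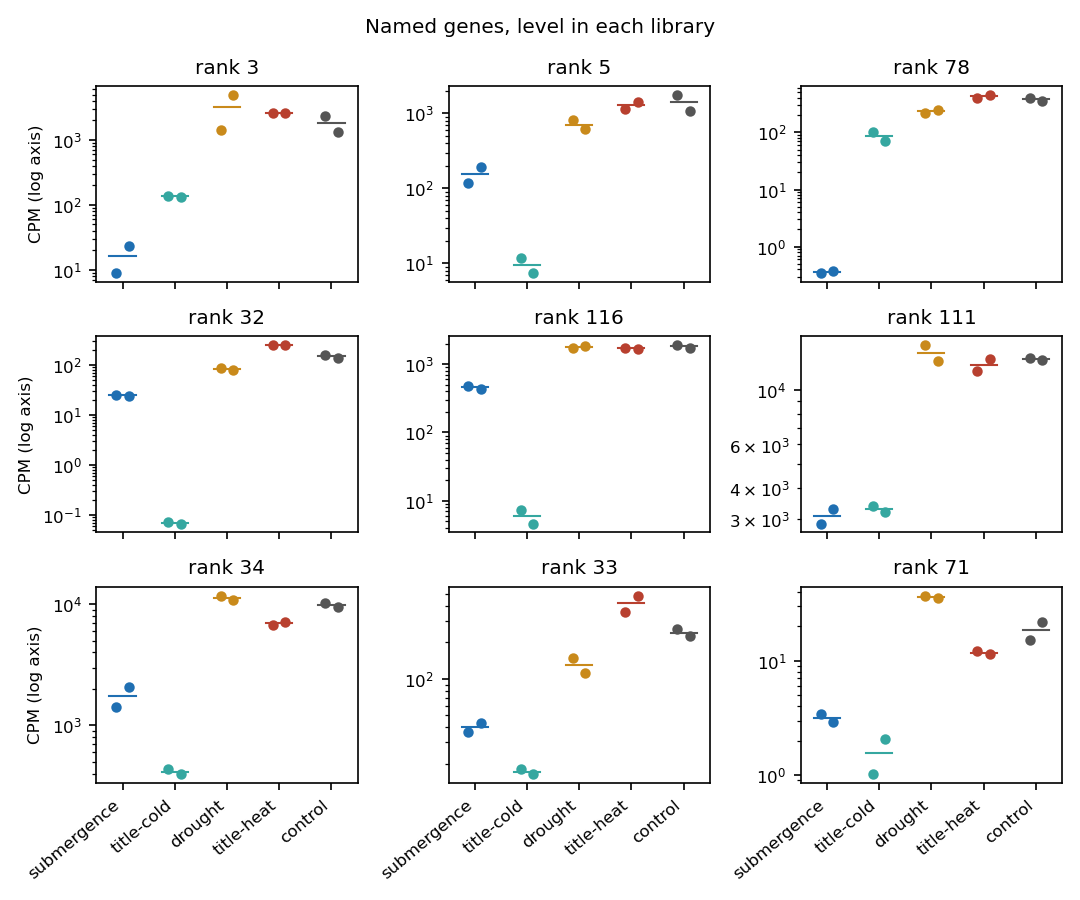
Level in CPM on a log axis of 9 named genes in each library (points) with group means (lines, n = 2). Ranks 3 and 78 are lowest under submergence, ranks 5, 32, 34 and 116 are lowest in title-cold, rank 111 overlaps between them, and ranks 33 and 71 also differ between drought and title-heat.

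Drought and title-heat were compared in the same way, since the rule does not fix the sign between them. It does limit the size of the difference, because both groups were held within 1 of control. By edgeR's test 48 of the 150 genes (32%) were called, where 30.1% of all kept clusters were. Of these, 35 were lower under drought than in title-heat and 13 higher, where 14.9% and 15.3% of kept clusters were called lower and higher. With total counts the split was 30 lower and 22 higher. The number called higher moved with single libraries. It was 5 without drought replicate 1, 2 without title-heat replicate 1, 3 without title-heat replicate 2 and 8 without control replicate 1, and 22 were lower without title-heat replicate 2. The median log2 fold change was −0.14 over the 150 genes and 0.01 over all kept clusters.

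The 35 genes that were lower under drought had median differences from control of −0.62 under drought and 0.45 in title-heat. In 31 of them drought lay below the control mean and title-heat above it, and in 4 both lay below. The 13 higher genes had medians of 0.55 and −0.51. In 9 of these drought lay above the control mean and title-heat below it, in 3 both lay below and in 1 both above. With both groups held within 1 of control, a difference large enough to be called favours opposite sides of control. Nothing is therefore read from these counts of sides. The share of the 150 genes called in this contrast is limited by the rule, so nothing is read from its being near that of all kept clusters.

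Rank 74 had 3.03 and 4.46 CPM under submergence, 8.95 and 8.72 CPM in title-cold, 26.0 and 23.9 CPM under drought, 72.0 and 97.0 CPM in title-heat, and 38.9 and 47.8 CPM in control. Its log2 fold change of drought against title-heat was −1.76 ± 0.21 (SE, adjusted p = 0.000303, edgeR). Rank 33 had 36.7 and 43.6 CPM under submergence, 18.0 and 16.5 CPM in title-cold, 150 and 111 CPM under drought, 357 and 487 CPM in title-heat, and 257 and 224 CPM in control. Its log2 fold change was −1.69 ± 0.20 (SE, adjusted p = 0.000292, edgeR). In both genes control lay between the treatments without overlap.

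Rank 71 had 3.44 and 2.93 CPM under submergence, 1.03 and 2.08 CPM in title-cold, 37.0 and 35.2 CPM under drought, 12.2 and 11.4 CPM in title-heat, and 15.0 and 21.9 CPM in control. Its log2 fold change was 1.62 ± 0.29 (SE, adjusted p = 0.00255, edgeR). Drought lay above control and title-heat below it. Rank 137 had 7 and 4 counts under submergence, 0 in both title-cold libraries, 145 and 45 counts under drought, 14 and 20 in title-heat, and 46 and 31 in control. Its log2 fold change of drought against title-heat was 2.31 ± 0.65 (SE, adjusted p = 0.0278, edgeR). Drought replicate 1 is far above replicate 2 in this gene, and the call was lost without it (log2 fold change 1.20, adjusted p = 0.237, edgeR) and without either title-heat library (adjusted p = 0.153 and 0.0949, edgeR).

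**Figure D5:**
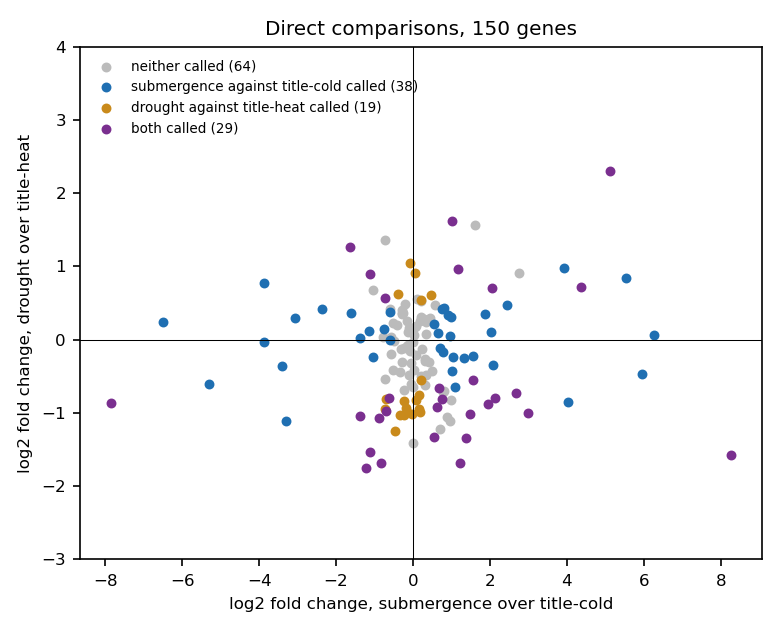
Log2 fold change of submergence over title-cold (horizontal) against drought over title-heat (vertical) for the 150 genes, coloured by which comparison was called by edgeR. The vertical spread runs from −1.76 to 2.31, and the horizontal spread from −7.84 to 8.27.

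The calls of the direct comparisons crossed in all combinations. Of the 41 genes higher under submergence than in title-cold, 13 (31.7%) were also lower under drought than in title-heat and 5 (12.2%) were higher. Among the 4370 kept clusters called higher under submergence these shares were 17.2% and 22.5%. Of the 26 genes lower under submergence, 8 (30.8%) were lower under drought and 3 (11.5%) higher, where 20.8% and 15.2% of the 4230 kept clusters called lower under submergence were. These counts are small and the differences between the shares were not tested. In 64 of the 150 genes (42.7%) neither contrast was called, beside 45.4% of all kept clusters. The rule limits how many of the 150 can be called for drought against title-heat.

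Replicates of the 150 genes differed about as much as those of all kept clusters under submergence, in title-cold and under drought. They differed less in title-heat and control. The median difference between the 2 libraries of a group in log2(CPM + 1) was 0.24 under submergence, 0.23 in title-cold, 0.25 under drought, 0.14 in title-heat and 0.19 in control. Over all kept clusters it was 0.23, 0.26, 0.27, 0.22 and 0.25 in the same groups. The 150 genes had more reads in control than most kept clusters (medians 135 and 6.03 CPM), and low counts scatter more. The sets are therefore not alike, and no comparison at like read numbers was made. Replicates differed by more than 1 in 9 genes under submergence, 3 in title-cold, 10 under drought, 1 in title-heat and 2 in control.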

How the data were processed

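The authors deposited whole-number read counts per assembled cluster for 10 leaf libraries. Per the submitters' processing notes the tools included RSEM and DESeq 1.10.1, whose roles are not stated. Counts from RSEM would be rounded estimates in which reads shared by similar sequences are split. The sources used here name neither assembly nor aligner. The table's name mentions bermudagrass and cold as well as ryegrass, and its columns match the sample descriptions.

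Kept clusters were scaled with TMM, and 1 quasi-likelihood model (edgeR 4.0.16, R 4.3.3, robust dispersions, 5 residual degrees of freedom) was fitted to all 10 libraries. Contrasts were adjusted by Benjamini-Hochberg over 21817 clusters and called below 0.05. SE is the log2 fold change over the root of its F value. The fit and the rule were tested on simulated data. Intervals and floors (3 counts) cover counting error only, and a floor bounds only the group at 0 counts. Replicates differed by more than counting noise (chi-square per degree of freedom at least 7.05), so each library counts.

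The 150 genes, contrasts and naming rule were chosen with earlier results of these data known. Values per library are given for ranks 1 to 6 and the 4 genes with most reads in control. They are also given for the 3 lowest and 3 highest called fold changes of submergence against title-cold and the 2 and 2 of drought against title-heat, with libraries not overlapping. For the edge of the list only the smaller falls are given. Rank 31 was added after its values were seen. Identifiers are printed for 2 genes. Alternatives were other scalings, filters, pseudocounts, DESeq2 1.42.0, a replicate block, fits of the 4 libraries compared, and leaving out each library.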

Additional observations from a re-analysis of the deposited data

How the results depend on the processing

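Applied again, the rule found 145 of the 150 genes with RLE factors, 126 with upper-quartile factors, 136 with total counts, 146 with filterByExpr, 147 with no filter, 138 and 112 with pseudocounts of 0.5 and 5, and 126 to 144 with a library left out. Upper-quartile factors moved differences from control by −0.15 under submergence, −0.23 under drought and −0.19 in title-heat, and the median over the genes became −0.50 under drought and −0.28 in title-heat. Total counts gave medians of −1.86 for submergence, −1.99 for title-cold and −0.24 for title-heat. A pseudocount of 0.5 gave −2.64 in title-cold, and one of 5 gave −2.10 under submergence and −2.10 in title-cold. With a library left out the medians ran from −2.54 to −2.30 under submergence, −2.60 to −2.38 in title-cold, −0.36 to −0.23 under drought and −0.16 to 0.0077 in title-heat, where the sign turned without title-heat replicate 1.

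For submergence against title-cold, leaving out a library gave 20 to 28 genes called lower and 31 to 43 higher, with 6282 to 8905 calls over all clusters in place of 8600. All clusters called numbered 13403 with filterByExpr and 16445 with no filter, which add clusters read under submergence. For drought against title-heat, 22 to 37 genes were lower and 2 to 15 higher with a library left out, with 3526 to 6507 calls over all clusters in place of 6574, lowest without title-heat replicate 2 and 4112 without replicate 1. Total counts gave 22 higher and no filter 24. With the replicate number as a block, 24 genes were lower and 41 higher for submergence against title-cold and 33 and 11 for drought against title-heat; same-numbered libraries did not deviate together (r from −0.02 to 0.05 over 10 pairs of groups). Of 180 refits of named fold changes, 176 remained called and 4 lost the call, with 0 changes of sign. Low counts limit ranks 1, 22, 72, 137 and 143.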
